A study of Rattus norvegicus with 125 samples.

Results

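The Hox genes were taken as all entries of the deposited segment table whose symbol is Hoxa, Hoxb, Hoxc or Hoxd followed by a number. These were 25 genes, with 1 transcript entry each, of 17144 gene symbols in the table: 6 of the HoxA cluster, 7 of HoxB, 5 of HoxC and 7 of HoxD, with 13 paralog numbers between them. RNA was measured in libraries of single nephron pieces that had been picked by hand after collagenase digestion of kidneys from adult male Sprague-Dawley rats, which weighed 200 to 250 g for the tubule segments. The tubule libraries cover 14 segments: the proximal tubule parts S1, S2 and S3 (n = 7 each), the short-loop descending thin limb (SDL, n = 10), the long-loop descending thin limb of outer (LDLOM, n = 9) and inner medulla (LDLIM, n = 4), the thin ascending limb (tAL, n = 7), the thick ascending limb in medulla (mTAL, n = 7) and cortex (cTAL, n = 7), the distal convoluted tubule (DCT, n = 8), the connecting tubule (CNT, n = 6) and the cortical, outer medullary and inner medullary collecting duct (CCD, n = 11; OMCD, n = 7; IMCD, n = 8). A further 5 libraries are whole glomeruli of adult males, for which the labels give no weight. Their labels carry the protocol text of the ddAVP experiment described next without saying that these rats were part of it, so whether they received ddAVP is not known here. In a separate experiment, 8 CCD libraries came from rats aged 5 weeks that all received ddAVP, an agonist of the vasopressin V2 receptor, at 5 ng/hr from an implanted minipump. Of these rats, 4 were given 50 mL of water a day for 4 days (water load) and 4 were given 25 mL a day (control). The labels number the segment and glomerulus libraries without tying them to rats, so the p-values measure only the spread between libraries, which may in part be technical.

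Hox genes encode homeodomain transcription factors and lie in 4 clusters, in which genes at the same relative position carry the same paralog number. In the embryo, genes with low numbers are switched on earlier and further towards the head, and genes with high numbers later and further towards the tail. The kidney arises from 2 tissues that both express Hox genes. The ureteric bud, in which Hoxb7 is active and whose promoter is widely used to mark it, gives the collecting duct, and the metanephric mesenchyme, which needs the paralog group 11 genes, gives the nephron from the glomerulus to the connecting tubule. Many adult tissues keep part of this expression.

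Levels are in RPKM, a read density per kilobase of transcript and library size, so they are per length, but features of the entries bear on every value below. First, 8 of the 25 genes were listed at 0 in all 110 segment and glomerulus libraries and in all 8 libraries of the water-load experiment. They are the entries of the HoxA cluster, Hoxc12 and Hoxd13. Of all symbols in the table, 2488 (14.5%) were likewise listed at 0 throughout, against 32% of the Hox genes. The genes that flank HoxA in RefSeq had values: Skap2 was above 0 in 96 libraries and Hibadh in 110, while Evx1 was listed at 0. The entry named Hoxa9 carries a transcript accession that RefSeq now gives to Hoxa7. Whether the HoxA genes are silent or were not counted was not tested. The other 14 Hox symbols of rat RefSeq, among them Hoxc11 and Hoxd11, are not analysed here.

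Second, the value of Hoxd10 is not separate from that of its neighbour Hoxd9. The authors deposited 2 versions of the segment table, 1 made with polyadenylation-site data and 1 without, and the first is the one described here. In it, Hoxd10 equalled 0.883 times the Hoxd9 value plus 0.287 times the Hoxd10 value of the other table across the tubule libraries (R2 = 0.9997). Of the 64 libraries with at least 1 RPKM of Hoxd10, 60 lay within 5% of that sum. The correlation of Hoxd9 with Hoxd10 across the tubule libraries, on log2(RPKM + 1), was 0.982 in this table and 0.505 in the other; both genes share the libraries and their depth. The transcript models also differ between the tables. Hoxb7 had a median of 0.286 times, and Hoxd9 0.232 times, the level given by the table without polyadenylation-site data, whereas Hoxd3 had the same value in both (median ratio 1.00). Hoxb9 differed most, with a median ratio of 12.2 and a correlation between the tables of 0.508 on the log2 scale; 41 libraries had a value above 0 only in the table with polyadenylation-site data. Levels are therefore compared between segments gene by gene, and comparisons of level between genes hold for this table only.

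**Figure D1:**
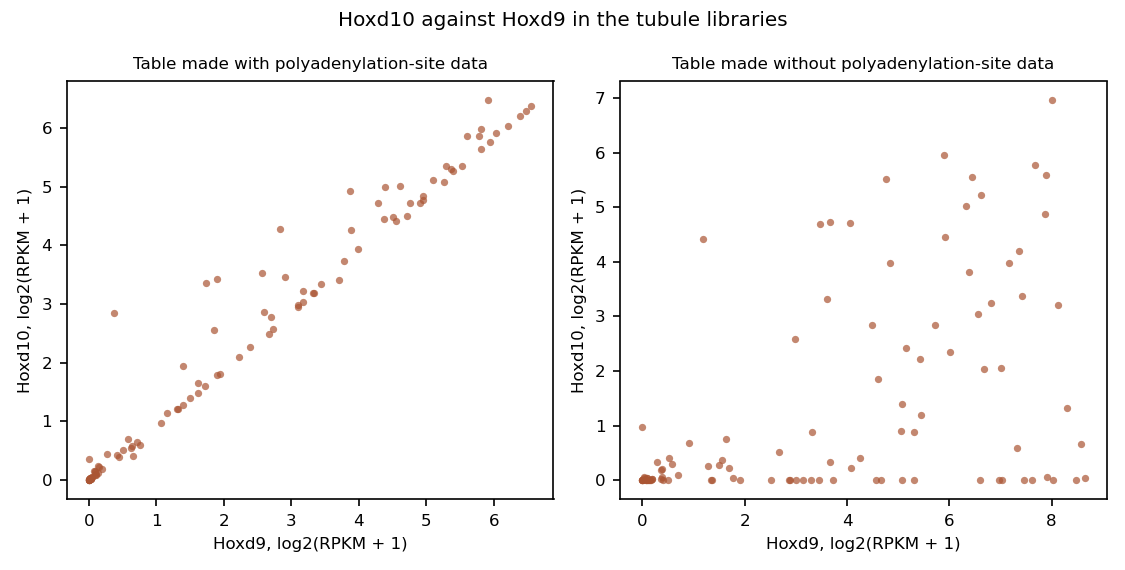
Each point is 1 tubule library, with Hoxd9 on the horizontal and Hoxd10 on the vertical axis, both as log2(RPKM + 1). In the table made with polyadenylation-site data (left) the points lie close to 1 line (correlation 0.982); in the table made without it (right) they scatter (0.505), with many Hoxd10 values at 0.

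The 3 HoxD genes with group means above 5 RPKM are Hoxd3, Hoxd9 and Hoxd10, which lie on the same strand of chromosome 3 in RefSeq. The 250 bases upstream of each annotated start are shown because these 3 genes had their highest medians in the distal part of the tubule. They are from the RefSeq promoter table of build GRCr8, given 5′ to 3′, with CG dinucleotides in capitals; the deposited tables were made on rn5, whose coordinates were not used. Hoxd10 is at chr3:80001697-80001946, Hoxd9 at chr3:80007756-80008005 and Hoxd3 at chr3:80045876-80046125, all on the plus strand.
Hoxd10: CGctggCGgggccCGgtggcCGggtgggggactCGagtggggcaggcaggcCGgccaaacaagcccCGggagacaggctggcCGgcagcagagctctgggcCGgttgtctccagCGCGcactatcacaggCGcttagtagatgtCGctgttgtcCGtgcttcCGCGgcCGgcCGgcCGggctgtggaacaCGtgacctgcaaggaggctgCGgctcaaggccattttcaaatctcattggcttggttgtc
Hoxd9: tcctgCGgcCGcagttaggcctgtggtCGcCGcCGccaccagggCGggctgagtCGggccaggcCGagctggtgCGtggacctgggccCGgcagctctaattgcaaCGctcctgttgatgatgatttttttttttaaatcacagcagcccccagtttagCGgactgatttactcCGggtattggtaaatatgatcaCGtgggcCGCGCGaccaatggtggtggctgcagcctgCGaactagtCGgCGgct
Hoxd3: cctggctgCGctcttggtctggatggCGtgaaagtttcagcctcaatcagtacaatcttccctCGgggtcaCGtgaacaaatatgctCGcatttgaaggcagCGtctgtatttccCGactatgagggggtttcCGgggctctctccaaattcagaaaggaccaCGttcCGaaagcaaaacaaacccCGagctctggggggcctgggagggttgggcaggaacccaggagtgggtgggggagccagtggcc
Hoxd10 holds 21 CG dinucleotides, Hoxd9 20 and Hoxd3 11, against a median of 6 over 27455 rat promoters of that length. The share of promoters with at least as many was 16.3%, 18.0% and 36.1%, in that order. Searched on both strands, none of the 3 held TGACAG (a Meis-type site, in 15.6% of all promoters), TGATNNAT (a joint Pbx and Hox site, 7.75%) or TTTATNG (a posterior Hox site, 10.1%). Of the 25 genes, 13 had an entry in the promoter table, none of them in HoxB.

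The libraries differed widely in depth: 1438 to 8574 genes reached 1 RPKM in a tubule library and 8818 to 9483 in a glomerulus. The files hold no read counts, so the counting error of a value is unknown, and many genes of low level are listed at 0 in single libraries. The labels fitted the markers of most segments: Slc12a1 and Umod, the markers of the thick limb, summed to 2144 RPKM or more in every cTAL library, and the 4 podocyte genes to 1128 RPKM or more in every glomerulus. Conflicts with the label were sought as over 1000 RPKM of endothelial genes in any tubule library. In S3 and tAL the limit was over 1000 RPKM of Aqp1. In the descending limbs it was under 100 of Aqp1 or over 1000 of proximal genes. Markers of a wrong segment were not checked elsewhere, and in DCT Slc12a1 and Umod summed to 157 to 1674 RPKM. By these limits the markers went against the label in 7 tubule libraries. The tAL libraries 1 and 2 had 8139 and 4977 RPKM of 7 endothelial genes, and tAL 6 and 7 had 4296 and 5273 RPKM of Aqp1, a water channel of the descending limb. The others were S3 library 7 (3606 RPKM of Aqp1), SDL library 9 (12.5 RPKM of Aqp1) and LDLOM library 1 (2329 RPKM of 3 proximal tubule genes). Of the 7 tAL libraries, 4 are thus among those that went against the label, so values of that group are given by library where they matter. The counts of called Hox genes in the comparisons below were also taken without these 7 libraries.

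Across the 14 segments, 17 Hox genes had any value above 0, and 9 had a mean of at least 5 RPKM in some group: Hoxb3, Hoxb5, Hoxb7, Hoxb9, Hoxc8, Hoxc9, Hoxd3, Hoxd9 and Hoxd10. A gene was tested when it reached 1 RPKM in at least 4 libraries. Of the 14 Hox genes that did, 12 differed between segments in the F test of limma (adjusted p under 0.05, Benjamini-Hochberg over all genes), where 41.5% of all 11078 genes tested did. The 12 were Hoxb4, Hoxb5, Hoxb7, Hoxb8, Hoxb9, Hoxc5, Hoxc8, Hoxc9, Hoxd3, Hoxd4, Hoxd9 and Hoxd10, and the adjusted p ranged from 1.19e-12 for Hoxd9 to 0.0445 for Hoxb4. Hoxb3 (adjusted p = 0.594) and Hoxd1 (0.133) did not pass. By cluster, 5 of 6 tested HoxB genes, 3 of 3 HoxC genes and 4 of 5 HoxD genes passed. The HoxD count includes the Hoxd10 entry with its Hoxd9 signal. By paralog number, none of the 6 genes numbered above 10 had a group mean of 1 RPKM. Hoxb13 was above 0 in 3 libraries and Hoxd12 in 1, all of cTAL and at 0.00861 RPKM or less. The highest group means in RPKM were those of Hoxb7 (99.0, in OMCD), the Hoxd10 entry with its Hoxd9 signal (37.8, in DCT), Hoxd9 (34.8, in DCT), Hoxb9 (20.9, in IMCD) and Hoxc8 (18.6, in the glomerulus).

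**Figure D2:**
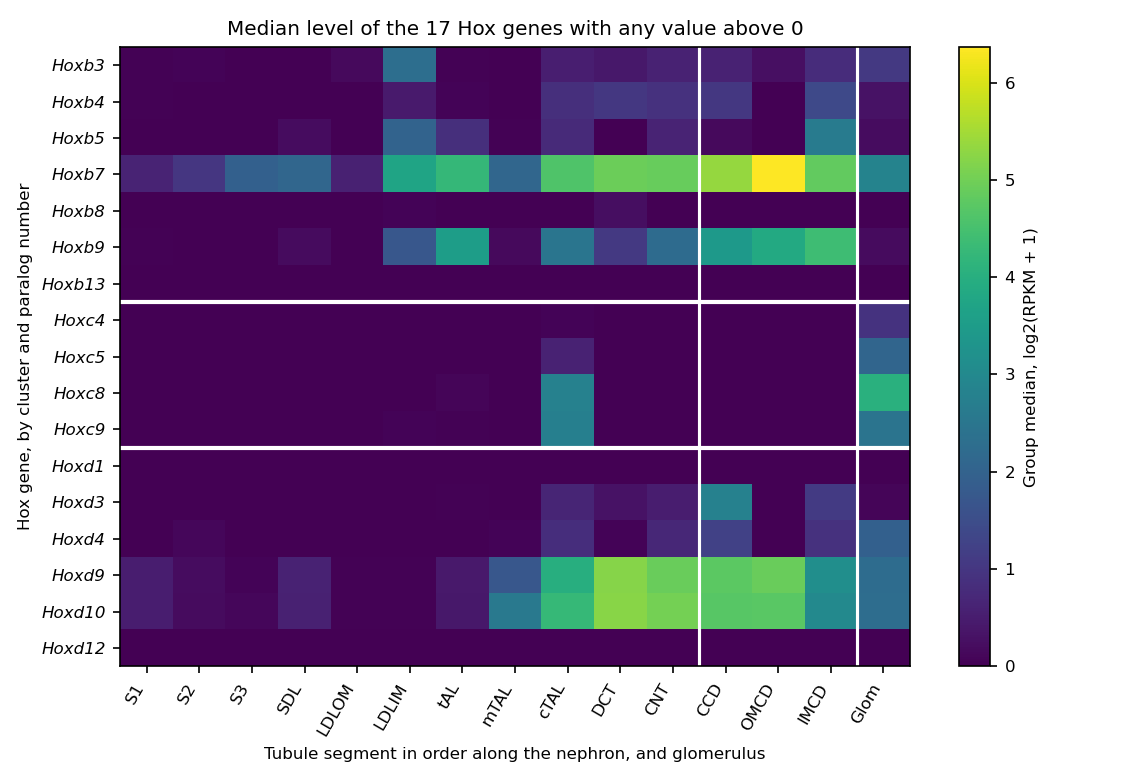
Each cell is the median of a group on the log2(RPKM + 1) scale, for the 17 Hox genes with any value above 0 (rows, by cluster and paralog number) in the 14 segments and the glomerulus (columns; white lines set off the collecting duct and the glomerulus). Hoxb7 and Hoxd9 are brightest from cTAL to IMCD, and the HoxC rows in cTAL and the glomerulus.

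Hoxb7 was the most widely detected Hox gene, with at least 1 RPKM in 81 tubule libraries. Levels were low in the proximal tubule. S1 ranged from 0.0542 to 10.1 RPKM (median 0.56), S2 from 0.043 to 14.4 (median 1.00) and S3 from 0.0347 to 61.7 (median 2.85). The 3 proximal parts overlapped with each other over most of their range. In the thin limbs, SDL held 0.0244 to 99.7 RPKM (median 3.29), LDLOM 0 to 31.3 (median 0.489) and LDLIM 9.63, 4.91, 14.9 and 40.2 in its 4 libraries. The tAL libraries held 0.0751 to 49.6 RPKM (median 17.8), and the 3 whose markers did not go against the label held 0.241 (tAL 3), 17.8 (tAL 4) and 30.8 (tAL 5). Every library from cTAL onwards was above 8 RPKM. Values were 12.3 to 34.2 in cTAL (median 23.4), 8.73 to 43.5 in DCT (median 29.8), 18 to 90.7 in CNT (median 28.7), 21.2 to 112 in CCD (median 40.1), 19.6 to 237 in OMCD (median 81.4) and 13 to 186 in IMCD (median 27.3). The mTAL just before them ranged from 0.358 to 56.1 (median 3.32). Every CCD and OMCD library thus lay above every S1 and S2 library, while S3 and SDL reached into the range of the collecting duct.

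Hoxd9, the paralog group 9 gene of HoxD, was mostly below 1 RPKM in the proximal tubule and descending limbs. It reached 1 RPKM in 12 of the 44 libraries from S1 to LDLIM and in 38 of the 40 libraries from DCT to IMCD. In S1 it ranged from 0 to 3.67 RPKM (median 0.424), in S2 from 0 to 5.34 (median 0.151) and in S3 from 0.00805 to 2.86 (median 0.0513). LDLOM, at 0 to 0.64 RPKM (median 0.0211), was the only segment with no library at 1 RPKM. The tAL group ranged from 0.00543 to 55.2 RPKM, and its highest library was tAL 6, 1 of those with high Aqp1. In the thick limb it ranged from 0.0751 to 8.05 RPKM in mTAL (median 2.33) and from 4.21 to 37.5 in cTAL (median 14.8). DCT held 0.295 to 72.8 RPKM (median 35.7), CNT 0.544 to 87.6 (median 29.3), CCD 5.46 to 82.7 (median 26), OMCD 1.24 to 92.9 (median 29) and IMCD 2.07 to 59.5 (median 7.79). The ranges of DCT, CNT, CCD and OMCD overlapped almost fully, and the lowest library of DCT (0.295), CNT (0.544) and OMCD (1.24) each lay far below its group's median. The Hoxd10 entry followed the same order as Hoxd9, with medians of 0.435 RPKM in S1, 36.7 in DCT and 25.4 in CCD. In the table without polyadenylation-site data, where the 2 entries are separate, Hoxd10 had its highest medians in DCT (18.9 RPKM, range 1.51 to 54) and CNT (7.18, range 0.292 to 47.3), with 3.14 in CCD (0 to 13) and 0.0322 in OMCD (0 to 0.839).

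Hoxd3, an anterior HoxD gene, was at or near 0 in the proximal tubule and the descending limbs. None of the 44 libraries from S1 to LDLIM reached 1 RPKM, with a highest value of 0.906 in S2. In CCD it ranged from 0 to 41 RPKM (median 5.94), and 8 of 11 libraries reached 1 RPKM. OMCD was split: 3 of 7 libraries reached 1 RPKM, the highest 35.9, and 3 were listed at 0. IMCD ranged from 0 to 12.7 (median 1.11), DCT from 0 to 12.7 (median 0.235), CNT from 0 to 14.1 (median 0.412) and cTAL from 0 to 3.73 (median 0.585). Most distal groups thus mixed libraries near 0 with libraries above 10 RPKM, so the medians understate the high ones. Hoxd4 stayed low, with medians of 1.33 RPKM in CCD and 0.864 in IMCD and a single cTAL library at 17.3. Hoxd1 reached 1 RPKM in 3 CCD libraries (highest 14.1) and 1 IMCD library (1.47) and in no other segment.

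Hoxb9 had its highest medians in IMCD and OMCD. No proximal library reached 1 RPKM (highest 0.931, in S2), and LDLOM had a median of 0.0144 with 1 library of 9 at 1 RPKM or above (2.64). Levels were 0 to 9.6 RPKM in cTAL (median 4.57), 0.159 to 9.06 in DCT (median 1.09), 0.0237 to 8.16 in CNT (median 3.64), 0.0111 to 40.4 in CCD (median 9.62), 0.00262 to 31.5 in OMCD (median 13.6) and 0.0284 to 44.9 in IMCD (median 20.1). In tAL, libraries 1, 3, 4 and 5 held 13.1, 12.3, 10.6 and 13.7 RPKM, and the other 3 were at 0.222 or below. The highest single value was 145 RPKM in SDL library 7, where the next SDL library held 9.71. These values rest on the transcript model: in the other table the medians of Hoxb9 were 0.0859 RPKM in CCD and 0.332 in IMCD.

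Among the remaining HoxB genes, Hoxb5 had its highest medians in IMCD and LDLIM, and its highest single libraries in LDLOM and SDL. It ranged from 0 to 68 RPKM in SDL (median 0.149), from 0 to 70 in LDLOM (median 0), from 0.91 to 17.5 in LDLIM (median 3.08) and from 0 to 12.1 in IMCD (median 5.24). No proximal, DCT or OMCD library reached 1 RPKM. Hoxb4 had its highest medians in IMCD (1.66), CCD (1.04) and DCT (1.03), with single libraries up to 19.1 RPKM in CCD and 12.7 in cTAL. Hoxb8 reached 1 RPKM in 3 of 8 DCT libraries (highest 8.57) and in 3 libraries of all other segments together, 1 each in tAL, OMCD and IMCD. Hoxb3 was scattered, with 35.8 RPKM in S1 library 3, 24 in LDLOM library 5 and 21.2 in a CNT library beside medians under 1 RPKM in all of these segments.

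**Figure D3:**
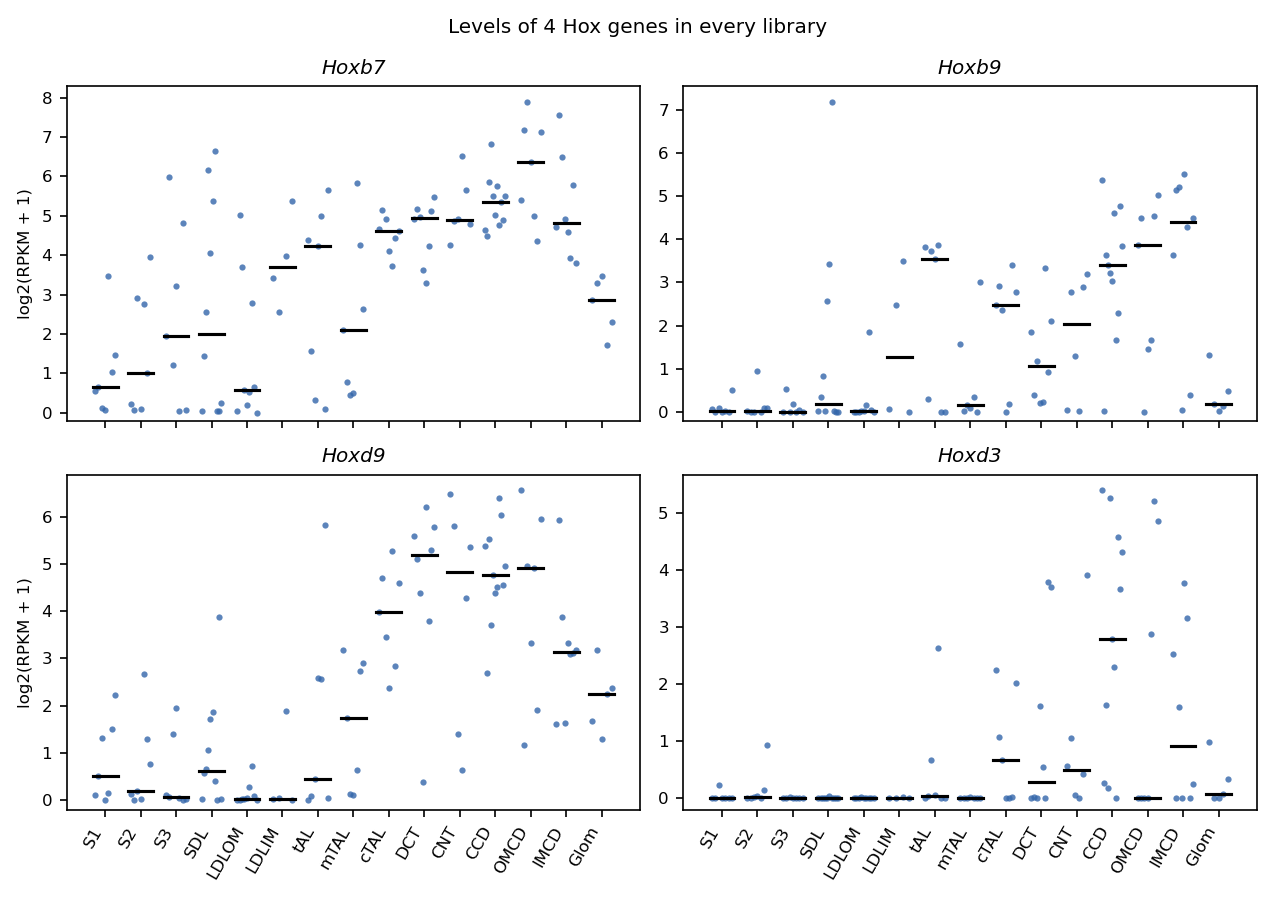
Each point is 1 library and each bar a group median, on the log2(RPKM + 1) scale, for Hoxb7, Hoxb9, Hoxd9 and Hoxd3 in the 14 segments and the glomerulus. From cTAL onwards every library has more than 8 RPKM of Hoxb7, Hoxd9 reaches 1 RPKM in 38 of the 40 libraries from DCT to IMCD, and Hoxd3 is near 0 from S1 to LDLIM.

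The collecting duct and the tubule of the nephron come from different tissues of the embryo, and the labels allow them to be set against each other. The mean of CCD, OMCD and IMCD was compared with the mean of the 10 segments from S1 to DCT, CNT being left out. Calls required an adjusted p under 0.05 (limma) and a change of at least 1 on the log2(RPKM + 1) scale, which understates changes of low genes. Of 14 Hox genes tested, 5 were called higher in the collecting duct, where 10.2% of all genes were, and none lower, where 2.93% of all genes were. The 5 include both Hoxd9 and the Hoxd10 entry with its Hoxd9 signal, so they are not 5 separate results. The median change of the 14 was 0.31 and that of all genes 0.25. In the same contrast 4 of 6 leukocyte genes (C1qa, C1qb, Cd74 and Lyz2) were called lower in the collecting duct (median change of the 6 -1.43), and their part in the Hox differences was not tested. Hoxb7 had at least 1 RPKM in 26 of 26 collecting duct libraries (13 to 237, median 40.8) and in 49 of 73 nephron libraries (0 to 99.7, median 5.88), a log2 difference of 2.82 ± 0.40 (SE, adjusted p = 1.19e-08). Hoxd9 was present at that level in 26 of 26 against 33 of 73 libraries, with a difference of 2.50 ± 0.35 (adjusted p = 7.74e-09), and the linked Hoxd10 entry differed by 2.28 ± 0.35 (1.43e-07). For both genes the 2 sets of libraries overlapped. Hoxb9, in 22 of 26 against 21 of 73 libraries, differed by 2.31 ± 0.36 (1.56e-07), and Hoxd3, in 15 of 26 against 7 of 73, by 1.73 ± 0.28 (5.41e-07). Hoxd4 (0.63 ± 0.17, adjusted p = 0.00509) and Hoxd1 (0.31 ± 0.11, 0.0414) passed the p threshold with changes below 1. The 4 tubule libraries with 1 RPKM of Hoxd1 were all of the collecting duct. Hoxd1 thus entered the test only through the group in which it was high, and its p is no support for a difference. In the opposite direction, Hoxc9 differed by -0.51 ± 0.19 (adjusted p = 0.0495), again below the limit on change. The calls of Hoxb7, Hoxd9 and Hoxd3 held under every alternative setting tried, while the table without polyadenylation-site data ended those of Hoxb9 (0.48, adjusted p = 0.0277) and Hoxd10 (0.07, adjusted p = 0.918).

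Hoxb7 and Hoxd9 were also higher in the thick limb and DCT than in the proximal tubule. The mean of mTAL, cTAL and DCT was compared with that of S1, S2 and S3, both of which derive from the metanephric mesenchyme. Of the 14 Hox genes, 3 were called higher in the thick limb and DCT, where 5.89% of all genes were, and none lower (5.52% of all genes). The 3 include both Hoxd9 and the Hoxd10 entry with its Hoxd9 signal. The Hoxd10 call was kept in the table without polyadenylation-site data, where the entries are separate. Hoxd9 reached 1 RPKM in 18 of 22 thick limb and DCT libraries (0.0751 to 72.8, median 11.3) and in 7 of 21 proximal libraries (0 to 5.34, median 0.115), a difference of 2.67 ± 0.46 (adjusted p = 1.65e-06). The Hoxd10 entry differed by 2.99 ± 0.46 (9.66e-08) and Hoxb7 by 2.13 ± 0.53 (0.0014). Hoxb7 in these libraries ran from 0.358 to 56.1 RPKM (median 19.4), against 0.0347 to 61.7 (median 1.05) in the proximal tubule, so the ranges overlapped while the medians stood far apart. Without polyadenylation-site data the difference of Hoxb7 was 1.79 with an adjusted p of 0.0844, so the call was lost there. The median of the 14 estimates was 0.66 against 0.22 for all genes. All 14 were above 0, but the share of all genes above 0 was not taken. Some lay within their error, such as Hoxd1 (0.0003 ± 0.15) and Hoxd4 (0.22 ± 0.23). The count of called Hox genes was 5 (Hoxb4 and Hoxb9 added) without the 14 tubule libraries that had fewer than 2500 genes, and 7 with a pseudocount of 0.1.

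In the thin limbs (SDL, LDLOM, LDLIM and tAL) against the proximal tubule, 2 of 14 Hox genes were called higher, where 15.9% of all genes were, and none lower (8.49% of all genes), shares no larger than those of the whole table. Hoxb5 reached 1 RPKM in 12 of 30 thin limb libraries (highest 70) and in 0 of 21 proximal ones (highest 0.79), a difference of 1.41 ± 0.38 (adjusted p = 0.0022). Hoxb9, in 10 of 30 against 0 of 21, differed by 1.22 ± 0.45 (adjusted p = 0.0316). Both calls were lost after quantile normalization (0.94, adjusted p = 0.0227, and 0.58, adjusted p = 0.271). That of Hoxb9 was also lost in the table without polyadenylation-site data (0.25, adjusted p = 0.372) and without LDLIM library 2 (1.14, 0.0554) or LDLIM library 3 (1.05, 0.0807). Hoxb7 differed by 1.06 ± 0.50 (adjusted p = 0.103). Hoxd9, with a difference of 0.13 ± 0.44 (95% interval -0.73 to 1.00), and Hoxd3 (0.06 ± 0.35) showed no difference beyond their error.

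No Hox gene was called in 4 contrasts of single segments. CNT against DCT gave 0 of 14 (2.15% of all genes were called in either direction), CCD against CNT 0 of 14 (0.0722%), IMCD against CCD 0 of 14 (6.64%), and LDLIM against LDLOM 0 of 14 (2.71%). At an unadjusted p under 0.05 the numbers of Hox genes were 1, 3, 5 and 1, in the same order. The share of all genes at that threshold was not taken, so these counts cannot be read against it. The border between CNT and CCD is usually taken as that between the nephron and the ureteric bud. Across it Hoxb7 differed by 0.16 ± 0.88 (95% interval -1.55 to 1.88) and Hoxd9 by 0.82 ± 0.77 (-0.68 to 2.32), intervals that include changes of more than 1 in the log2 value, so these libraries do not show whether the 2 genes are alike there. Hoxd3 had the largest difference of the 14 at this border, 1.75 ± 0.61 higher in CCD (adjusted p = 0.761, unadjusted 0.00505). Down the collecting duct, from CCD to IMCD, Hoxd9 differed by -1.59 ± 0.70 (adjusted p = 0.2), Hoxd3 by -1.35 ± 0.56 (0.161) and Hoxb5 by 1.24 ± 0.60 (0.267). At the border of DCT and CNT, Hoxb8 had the smallest p, with a difference of -0.86 ± 0.26 (adjusted p = 0.0557). Between the outer and inner medullary long descending limb, Hoxb7 differed by 2.33 ± 1.04 (adjusted p = 0.216).

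The HoxC genes followed another pattern: they were found in the glomerulus and the cTAL and were at or near 0 in the distal segments in which HoxB and HoxD genes were high. At least 1 RPKM of some HoxC gene was present in 5 of 5 glomeruli and in 7 of 7 cTAL libraries, but in 0 of 21 proximal libraries, in 0 of the 32 libraries of DCT, CNT, CCD and OMCD, and in 1 of 8 IMCD, 1 of 7 mTAL, 2 of 7 tAL, 2 of 10 SDL, 1 of 9 LDLOM and 1 of 4 LDLIM libraries. The summed HoxC level was 6.06 to 17.3 RPKM in cTAL, against a highest sum of 0.31 in the 32 libraries from DCT to OMCD and of 2.23 in mTAL. The cTAL libraries did not overlap with any of these, although DCT follows directly after cTAL. They did overlap with the thin limbs, where the highest sums were 7.46 RPKM in SDL, 14.1 in LDLOM, 28.3 in LDLIM and 92.2 in tAL. No contrast of cTAL alone was tested, and the share of all genes that set cTAL apart in this way was not taken. The median number of genes at 1 RPKM was 6701 in cTAL, 2870 in mTAL and 6065 in DCT.

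Hoxc8 held 0 to 8.57 RPKM in cTAL (median 5.98), with 5 of 7 libraries between 5.54 and 8.57 and the other 2 below 0.1. It was listed at 0 in all 11 CCD and all 8 IMCD libraries, and its highest value from DCT to IMCD was 0.0925 RPKM. In tAL, library 4 held 70.5 RPKM and library 5 held 14.4, and the other 5 were at 0.182 or below. Hoxc9 ranged from 0 to 8.88 RPKM in cTAL (median 5.66) and was listed at 0 in every CNT, CCD and OMCD library. Single libraries stood out elsewhere, at 26.5 RPKM in LDLIM library 2, 14.1 in LDLOM library 1 (the one with proximal markers) and 10.6 in tAL library 4. Hoxc5 had 0 to 6.56 RPKM in cTAL (median 0.516), with 3 of 7 libraries at 1 RPKM or above. Which HoxC gene was present differed between cTAL libraries: library 4 held 6.56 RPKM of Hoxc5 with Hoxc8 and Hoxc9 at 0, and library 6 held 5.54 of Hoxc8 and 8.88 of Hoxc9 with Hoxc5 at 0. Across the tubule libraries, on log2(RPKM + 1), Hoxc8 correlated with Hoxc5 at 0.610 and with Hoxc9 at 0.560; only 8 libraries had Hoxc8 at 1 RPKM or above, and the points share library and depth.

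Cells other than tubule cells may adhere to a dissected piece, so their markers are given beside these values. The summed 6 leukocyte genes were 328 to 1042 RPKM in cTAL, 420 to 1184 in mTAL, 293 to 2495 in S2 and 673 to 1443 in the glomerulus. The 8 stromal genes summed to 0.0131 to 21.2 RPKM in cTAL, with Col1a2 and Lum listed at 0 in every library, and to 37.7 to 65.8 in the glomerulus. The 4 podocyte genes summed to 0 to 11.1 RPKM in cTAL. The part of such cells in the HoxC levels of cTAL was not tested, and in these bulk libraries fewer cells of a type and less RNA per cell cannot be told apart.

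**Figure D4:**
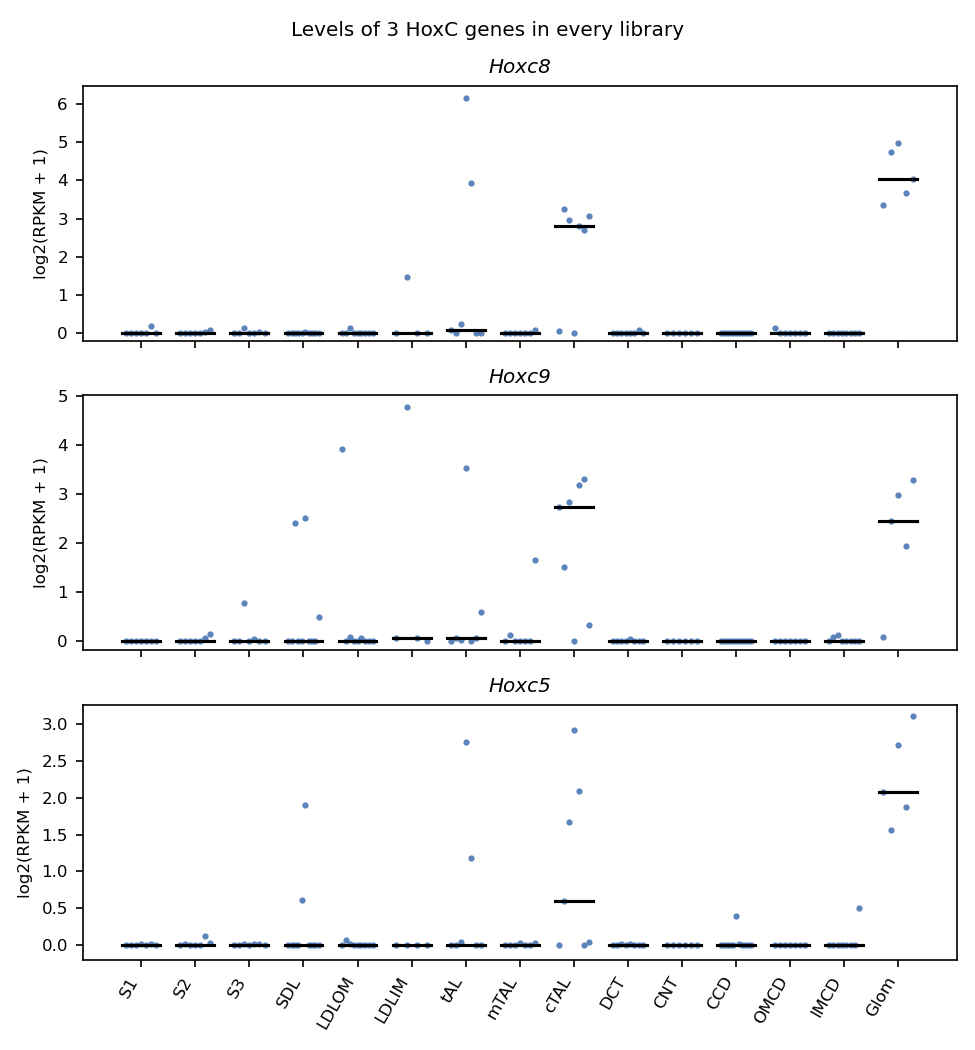
Each point is 1 library and each bar a group median, on the log2(RPKM + 1) scale, for Hoxc8, Hoxc9 and Hoxc5. All 5 glomeruli stand above 1 RPKM for Hoxc8 and Hoxc5, as do 5 of 7 cTAL libraries for Hoxc8 and for Hoxc9, and the libraries of DCT, CNT, CCD and OMCD lie at or near 0.

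The 5 glomeruli were compared with the mean of the 14 segments. The glomerulus libraries had more genes at 1 RPKM than any tubule library, and the median change of all genes was 1.31, so single changes have to be read against that shift. Of 15 Hox genes tested, 4 were called higher, where 37.7% of all genes were, and none lower, where 1.20% of all genes were; the median change of the 15 was -0.10. In the same contrast 6 of 6 tested endothelial genes (median change 5.58, summed level 517 to 1058 RPKM in the glomerulus) and 5 of 6 leukocyte genes (median change 3.77) were called higher, and their part in the Hox differences was not tested. Hoxc8 held 9.28, 25.7, 30.7, 11.8 and 15.4 RPKM in the 5 libraries, against 1 RPKM or more in 8 tubule libraries, and differed by 3.87 ± 0.34 (adjusted p = 2.57e-18). Hoxc5 held 1.96 to 7.64 RPKM (difference 2.12 ± 0.22, 6.56e-15), Hoxc9 0.0583 to 8.72 (1.77 ± 0.39, 0.000101) and Hoxd4 0.563 to 5.49 (1.35 ± 0.34, 0.000839). Hoxc4, at 0 to 1.67 RPKM, differed by 0.85 ± 0.16 (adjusted p = 7.19e-06), below the limit on change. It reached 1 RPKM in 2 tubule libraries and 2 glomeruli. Hoxc4 thus met the limit for testing only through the glomeruli, and its p is no support for a difference. After quantile normalization, which removes the shift between glomerulus and tubule, only Hoxc8 stayed called higher (1.93), Hoxc5 (0.35, adjusted p = 0.337) and Hoxc9 (0.15, 0.849) lost their calls and Hoxd4 changed sign (-0.18, 0.801), while Hoxb7 (-2.75, adjusted p = 0.000216), Hoxd9 (-1.93, adjusted p = 0.00909) and the Hoxd10 entry (-2.02, adjusted p = 0.00503) were called lower. Hoxb7, the leading gene of the collecting duct, was at 2.31 to 10.1 RPKM in glomeruli (difference -0.80 ± 0.76, adjusted p = 0.389), and Hoxd9 at 1.46 to 8.11 (-0.10 ± 0.66, 0.914; 0.70 with a pseudocount of 0.1). Hoxb8 and Hoxd1 were listed at 0 in all 5 glomeruli.

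Water load under ddAVP brings the collecting duct to escape from the effect of vasopressin, and the 8 CCD libraries allow the Hox genes to be compared under it. Of 7 Hox genes tested, none was called at an adjusted p under 0.05 in limma, where 13 of 8492 genes (0.153%) were. This fit did not pair the libraries. An unadjusted p under 0.05 was found for 2 Hox genes, and the share of all genes at that threshold was not taken. Hoxb7 held 165, 171, 142 and 136 RPKM in the controls and 99.6, 72.4, 73.5 and 87 RPKM under water load. All 4 water-loaded libraries lay below all 4 controls. The means were 154 ± 16.9 and 83.1 ± 12.8 RPKM (SD, n = 4 each), a log2 difference of -0.88 ± 0.25 (adjusted p = 0.285). Hoxb5 held 2.3, 3.45, 4.63 and 1.66 RPKM in the controls and 0.429, 0.129, 1.05 and 0.517 under water load, also without overlap, with a difference of -1.36 ± 0.43 (adjusted p = 0.429). Thus 2 of 7 tested Hox genes had all water-loaded libraries below all controls, as 2.10% of all genes tested did, and none had them all above (2.18%). Hoxd1, untested because too few libraries reached 1 RPKM, held 0.0662 to 6.17 RPKM in the controls and at most 0.0173 under water load. Hoxd10, also untested, had a mean of 0.765 RPKM in the controls and 2.35 under water load, with overlap. Hoxd9 held 95.8 to 145 RPKM in the controls and 115 to 172 under water load, with overlap (0.36 ± 0.26, adjusted p = 0.819), and Hoxd3 held 17.6 to 52.8 and 13.7 to 32.2 (-0.26 ± 0.39, 0.93).

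The summed level of 5 principal cell genes, which include the vasopressin-regulated Aqp2 and Aqp3, was 12190 to 20307 RPKM in the controls and 5936 to 11839 under water load, again without overlap, and that of 2 CNT genes 48.3 to 377 and 246 to 2415. Their part in the result for Hoxb7 was not tested. The 8 libraries also describe the same segment in other rats. The Hox genes at 10 RPKM or above in them were Hoxb7, Hoxd9 and Hoxd3, which had means of 43.9, 33.7 and 13.1 RPKM in the CCD group of the segment table, where Hoxd10 (30.9) and Hoxb9 (13.3) were also above 10. HoxC genes were at or near 0, with Hoxc8 listed at 0 in all 8 and a highest Hoxc5 value of 0.673. Hoxd10 was at 0 to 2.16 RPKM in the controls, unlike the 5.84 to 72.7 RPKM of its entry in the CCD group, and Hoxb9 at 0.533 to 5.9. The control means of Hoxb7, Hoxd9, Hoxd3, Hoxb9 and Hoxd10 were 154, 113, 31.4, 2.54 and 0.765 RPKM. In the segment table without polyadenylation-site data the CCD means were 134, 144, 13.1, 1.48 and 4.21, in the same order. The part of the transcript models in these differences was not tested. The tables were normalized separately, and no test was made across them.

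**Figure D5:**
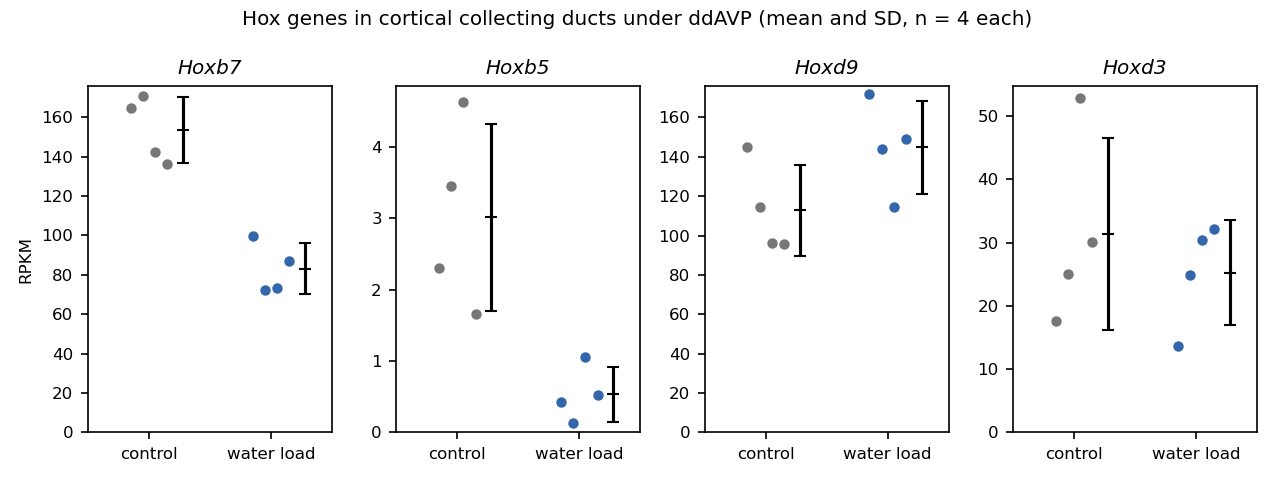
Each point is 1 CCD library from a rat given ddAVP, with RPKM on a linear axis from 0; black marks give the mean and SD of 4 libraries. Hoxb7 and Hoxb5 lie lower in all 4 water-loaded than in all 4 control libraries, and Hoxd9 and Hoxd3 overlap.

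Hox proteins bind DNA together with the homeodomain cofactors of the Pbx, Meis and Pknox families. Of 9 such genes, 8 were tested in the tubule, and none was called between the collecting duct and the nephron tubule. In that contrast 10.2% of all genes were called higher and 2.93% lower, so few calls among 8 genes would be looked for. The median change was 0.02, against 0.25 for all genes. Pbx4 was called lower in the thin limbs (-1.27 ± 0.22, adjusted p = 1.55e-06) and in the thick limb and DCT (-1.17 ± 0.23, 3.39e-05) than in the proximal tubule. In the glomerulus 7 of 9 were called higher, where 37.7% of all genes were, led by Meis2 (6.08 ± 0.51, 8.95e-20) and Meis1 (3.93 ± 0.18, 2.28e-40), with a median of 2.57 against 1.31 for all genes. Of 9 genes that act with the paralog group 11 genes in kidney development, 3 were tested in the tubule. Sall1, a zinc finger factor of the nephron lineage, was lower in the collecting duct (-2.16 ± 0.45, 0.000127) and higher in the thin limbs (2.21 ± 0.57, 0.00145), and Pax8 was higher in the thin limbs (3.16 ± 0.60, 1.03e-05). Itga8 was higher in the glomerulus (5.18 ± 0.34, 5.35e-27).

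Polycomb proteins hold Hox genes silent, trithorax proteins keep them active, and retinoic acid switches on their anterior members in the embryo. Of 14 Polycomb genes, 12 were tested, and 1 was called between collecting duct and nephron tubule: Rnf2, a ubiquitin ligase subunit, was higher in the duct (1.57 ± 0.46, adjusted p = 0.00849). In that contrast 10.2% of all genes were called higher and 2.93% lower, so 1 of 12 is no larger than the share of the whole table. In the thin limbs Rnf2 (1.55 ± 0.57, 0.0324) and Cbx7 (1.46 ± 0.52, 0.0255) were called higher than in the proximal tubule, where 15.9% of all genes were. In the glomerulus 6 of 12 were called higher, a share to be read against the 37.7% of all genes and a median change of 1.97 against 1.31, among them Ezh2 (2.05 ± 0.57, 0.0027) and Eed (2.92 ± 0.69, 0.000327). None of the 5 trithorax and demethylase genes tested was called between duct and nephron, a count to be read against the same shares of all genes. In the thin limbs Kdm6b (1.03 ± 0.31, 0.00651) and Wdr5 (1.57 ± 0.52, 0.0171) were called higher, where 15.9% of all genes were. Wdr5 was also higher in LDLIM than in LDLOM (3.86 ± 1.08, 0.0278). Of the 5, 3 were called higher in the glomerulus, where 37.7% of all genes were. Of 7 retinoic acid genes, 6 were tested in the tubule, and 2 were called between duct and nephron, 1 higher and 1 lower. Aldh1a1, which makes retinoic acid, was higher in the collecting duct (2.43 ± 0.47, 3.19e-05) and lower in IMCD than in CCD (-4.56 ± 0.94, 0.000194), and its relative Aldh1a2 was lower in the duct (-1.33 ± 0.35, 0.00281). Against the proximal tubule, Aldh1a1 was lower in the thin limbs (-4.40 ± 0.59, 8.25e-10), and Aldh1a2 was higher in the thin limbs (1.79 ± 0.44, 0.000727) and in the thick limb and DCT (1.77 ± 0.46, 0.00239). In the glomerulus 6 of 7 retinoic acid genes were called higher, where 37.7% of all genes were. None of the cofactor, Polycomb, trithorax or retinoic acid genes was called under water load in limma, where 0.153% of all genes were.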

How the data were processed

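RNA sequencing values were used as the authors deposited them, in RPKM. Per the submitters' processing notes, build rn5 was used with HOMER, SAMtools, STAR 2.3.0-r192 and Trimmomatic 0.32. Their settings, and the way polyadenylation-site data entered 1 of the 2 segment tables, were not given in the sources used here. Data of the 7 polyadenylation-site samples are not analysed here, and 5 glomerulus columns of the second table were not used because their values are displaced against the gene names.

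Values were taken as log2(RPKM + 1). Tests were run on genes reaching 1 RPKM in 4 or more of the libraries fitted, with limma 3.58.1 in R 4.3.3 (trended moderated test, two-sided, Benjamini-Hochberg over all genes tested), in 1 fit of all tubule libraries, 1 of 110 with glomeruli and 1 of the 8 water-load libraries. Contrasts are means of segments, each segment weighted equally. A call needed an adjusted p under 0.05 and, except in the F test and under water load, a log2 change of 1 or more in size. No read counts are given, so depth was judged by the number of genes at 1 RPKM. The fit was tested on simulated data. Python 3.11.15 prepared tables and plots.

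Members whose mean reached 5 RPKM in some group, or with a call in any comparison are named with values, the others by counts and ranges; other genes are named from the cofactor, partner and regulator lists where called. The members and lists were chosen with earlier results of these data known. Alternatives were quantile normalization, no filter, a pseudocount of 0.1, a block for replicate number, the second table, the number of detected genes as a covariate, groups fitted alone, and leaving out shallow or single libraries. Leaving out the 7 libraries whose markers went against their label was chosen after seeing the data. Same-numbered libraries of the water-load experiment deviated together (correlations of 0.209 to 0.313 in 4 of 4 pairs). The labels name different rats and give no pairing, so a pairing by number is only inferred. It entered the alternative run with a block and not the main fit.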

Additional observations from a re-analysis of the deposited data

Results flagged for a closer look

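Among the 9 Hox genes with a group mean of at least 5 RPKM, 100 groups of 4 to 10 libraries with a library at 1 RPKM or above were searched for a single library that stood far from the others on the log2(RPKM + 1) scale (Dixon's ratio above its 95% critical value). Such a library was found 21 times. Chance marks about 1 in 20 groups of normally distributed values, a rate that does not hold for these groups, which were chosen for having a library at 1 RPKM while others often lie at or near 0. In each sentence below, the value is that of the library that stood apart.

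Hoxb3 stood apart in 5 groups, at 17.6 RPKM in IMCD library 4 (others 0 to 1.05), 24.0 in LDLOM library 5, 35.8 in S1 library 3, 5.06 in mTAL library 5 and 4.31 in tAL library 1. Hoxb5 reached 70.0 RPKM in the same LDLOM library 5, where the other 8 held at most 5.07. Hoxb7 was at 10.1 in S1 library 5 (others at most 1.75). Hoxb9 was at 145 in SDL library 7 (others at most 9.71) and at 2.64 in LDLOM library 7. The HoxC genes stood apart in LDLIM library 2, with 1.79 RPKM of Hoxc8 and 26.5 of Hoxc9 where the other 3 libraries had 0 and at most 0.0395. Hoxc9 also did so at 14.1 in LDLOM library 1, 2.16 in mTAL library 7 and 10.6 in tAL library 4. Hoxd3 was at 14.1 in CNT library 6 (others at most 1.09) and 5.17 in tAL library 5. Hoxd9 was the only gene with a low library, 0.295 RPKM in DCT library 4, where the other 7 held 12.8 to 72.8. It was high in LDLIM library 3 (2.72) and SDL library 9 (13.6), and the linked Hoxd10 entry was high in the same 2 libraries (9.72 and 29.6).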

How the results depend on the processing

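In CCD against CNT, CNT against DCT, IMCD against CCD, LDLIM against LDLOM and under water load, no Hox gene was called under any alternative run. The number of called Hox genes moved by more than 1.5 times in 3 comparisons. In the collecting duct against the nephron tubule it was 5 and became 3 in the table without polyadenylation-site data. In the thin limbs it was 2 and became 0 after quantile normalization and 1 in the table without polyadenylation-site data, and leaving out single LDLIM libraries gave 1 to 2. In the thick limb and DCT it was 3 and became 7 with a pseudocount of 0.1 and 5 without libraries under 2500 genes. The sign changed for Hoxd4 in the glomerulus after quantile normalization (-0.18). It also changed for 2 uncalled glomerulus differences near 0. Hoxd9 gave 0.70 and Hoxd10 0.50 with a pseudocount of 0.1, and leaving out 1 glomerulus gave -0.35 to 0.12 for Hoxd9 and -0.43 to 0.19 for Hoxd10. Hoxb9 in the glomerulus was called lower (-1.89) with the number of detected genes as a covariate. The cause of these changes was not tested. Without the 7 libraries whose markers went against their label, the calls in the 3 tubule contrasts and the glomerulus were of the same genes.

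With the replicate number as a block, 11 of 14 Hox genes differed between segments (Hoxb4 lost), and 3 in place of 2 were called in the thin limbs (Hoxb7 added). Hoxd9 in the glomerulus changed sign (0.062). Under water load, where a pairing by number is inferred and not given by the labels, Hoxb7 kept a difference of -0.88 (limma, adjusted p = 0.177). Hoxb5 kept one of -1.36 (adjusted p = 0.244). The block changed no other call. The segment libraries share only a number: of 6 same-numbered pairs of CNT and DCT, 1 correlated above 0.1. The absence of read counts limits all values near 0.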

Other observations

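The number of Hox genes at 1 RPKM or above in a single library was 0 to 4 in S1 and in S2 (median 1 each), 0 to 3 in S3 (median 1) and 0 to 5 in LDLOM (median 1). It was 0 to 9 in SDL (median 2.5), 1 to 7 in LDLIM (median 3.5), 1 to 10 in tAL (median 3), 0 to 8 in mTAL (median 2), 3 to 7 in DCT (median 5) and 2 to 8 in CNT (median 5.5). It was 5 to 10 in cTAL (median 8), 4 to 10 in CCD (median 6), 3 to 6 in OMCD (median 5), 3 to 9 in IMCD (median 7.5) and 6 to 9 in the glomerulus (median 8). The median number of all genes at 1 RPKM was 4437 in S1, 4997 in S2 and 3850 in S3. It was 3325.5 in SDL, 3428 in LDLOM, 6300.5 in LDLIM, 4054 in tAL, 2870 in mTAL and 6701 in cTAL. In the distal groups it was 6065 in DCT, 5541.5 in CNT, 6749 in CCD, 3212 in OMCD and 6321.5 in IMCD. The glomerulus had 9298.

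Summed over a cluster, HoxB had its highest median in OMCD (85.2 RPKM). The HoxD sum had a median of 80.2 RPKM in CCD, 79.0 in DCT and 0.157 in S3, and counts the Hoxd9 signal in both the Hoxd9 and the Hoxd10 entry.

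Across the tubule libraries on the log2(RPKM + 1) scale, Hoxb7 correlated at 0.530 with Hoxd9 and at 0.535 with Hoxb9, Hoxb9 at 0.543 with Hoxd3, and Hoxd3 at 0.491 with Hoxd9. Hoxb7 and Hoxd9 were both at 1 RPKM or above in 60 libraries. The points share library and depth, and these values are descriptions.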
